A study of Rattus norvegicus with 6 samples.

Results

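The GABA-A receptor is the chloride channel that opens when the inhibitory transmitter GABA binds to it. Probe sets for 7 of its subunit genes were compared between contused and uninjured rat spinal cord: Gabrb1 and Gabrb2 (beta subunits), Gabra2, Gabra3 and Gabra5 (alpha subunits), Gabrg1 (a gamma subunit) and Gabrd (the delta subunit). The members were every probe set whose annotation names exactly 1 of these genes, which gave 11 probe sets among the 8799 of the array, or 7 of 4736 singly named genes. Of these 11, 9 passed the filter on dim signals and were tested, with at least 1 probe set for each of the 7 genes.

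Each receptor is a pentamer, usually built from alpha and beta subunits with a gamma or delta subunit. GABA binds between a beta and an alpha subunit, and benzodiazepines bind between an alpha and a gamma subunit. Receptors with a gamma subunit carry much of the fast synaptic inhibition, while delta-containing and many alpha5-containing receptors sit outside synapses and give a steady, tonic current. In the spinal cord, GABA-A receptors on motor neurons, dorsal horn neurons and sensory terminals dampen reflexes and the relay of pain.

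Total RNA was taken from cord at about thoracic segment 8 and measured on 1 array per sample. The 3 contused samples came from the epicenter, the injured tissue itself, 35 days after a contusion, which is a blunt blow to the cord. The 3 uninjured samples came from the same position in animals without an injury. Strain, sex and age are not given in the sources used here, no sham operation is named for the uninjured animals, and the labels do not say whether the arrays stand for separate animals. The p-values therefore cover only array-to-array spread, some of which may be technical.

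Values are signals, the deposited intensities on a linear scale, and a level of 1 probe set cannot be set against that of another. Median signals ran from 122 to 127 on the contused arrays and from 124 to 126 on the uninjured arrays. Signals under 61.6, the pooled lower quartile, were set to that floor before the log2 transform. Testing required signals above it on at least 3 of 6 arrays. Changes are log2 differences, contused over uninjured, with standard errors and p-values from limma, adjusted by Benjamini-Hochberg across the 6705 tested probe sets. A probe set was called past the threshold at an adjusted p of 0.05.

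Both beta subunit genes were called lower, and no other member was. Neither was tested against an alpha, gamma or delta gene, so a lesser fall of those is not shown. Of 9 tested member probe sets, 2 were lower after contusion, 1 each for Gabrb2 and Gabrb1, against 9.59% of all tested probe sets. None was higher (0 of 9 in limma, against 7.79% of all), and no further member reached an unadjusted p of 0.05. The median log2 change was -0.23 over the 9 member probe sets, against -0.01 over all tested probe sets, with 7 below 0 and 2 above.

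Gabrb2 encodes the beta2 subunit, part of the most common GABA-A receptors of the adult brain. Its tested probe set (rc_AA891476_at) gave signals of 82.4, 62.4 and 74.7 on the contused arrays, against 140.4, 162 and 173 on the uninjured arrays. All 3 contused arrays lay below all 3 uninjured arrays, and the lowest of them stood just above the floor. Gabrb2 averaged 73.2 ± 10.1 in contused cord and 159 ± 16.7 in uninjured cord (signal, SD, n = 3 each). That is a 2.17-fold fall (log2 change -1.12, SE 0.15, limma adjusted p = 0.00071), with a 95% interval of 1.72-fold to 2.75-fold. The call held with each array left out in turn (adjusted p = 0.00185 to 0.00592). With the floor raised to the pooled median signal, which lies above all 3 contused values, the log2 change shrank to -0.34 (adjusted p = 0.0365).

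A further Gabrb2 probe set (X15467cds_at) was below the floor on all 6 arrays and was not tested. Its signals were 40.3, 44.8 and 51.8 in contused cord, against 30.1, 20.1 and 37.6 in uninjured cord. These values were ordered the other way, with every contused array above every uninjured array, so the fall of Gabrb2 rests on 1 probe set.

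Gabrb1 encodes the beta1 subunit. Its only probe set gave signals of 167, 215 and 185 on the contused arrays, against 234, 318 and 277 on the uninjured arrays. The groups did not overlap, although the highest contused value and the lowest uninjured value were close. Gabrb1 averaged 189 ± 24.1 in contused cord and 277 ± 42 in uninjured cord (signal, SD, n = 3 each). The fall was 1.46-fold (log2 change -0.55, SE 0.17, limma adjusted p = 0.0458), with a 95% interval of 1.13-fold to 1.88-fold.

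The call for Gabrb1 was close to the threshold. It was lost with 1 array left out in 5 of 6 cases, at adjusted p-values of 0.139, 0.0611 and 0.0833 without contused arrays 1, 2 and 3 and of 0.141 and 0.137 without uninjured arrays 2 and 3. It was also lost when dim probe sets were kept in (adjusted p = 0.121). The log2 change of Gabrb2 was more negative than that of Gabrb1 by 0.57 (difference -0.57, SE 0.24, 95% interval -1.24 to 0.09). The difference was -0.37 without contused array 2, and it turned to 0.21 with the floor at the pooled median signal. The exact permutation test gave p = 0.1, the smallest that 3 against 3 arrays allow, and an adjusted p of 0.5 over 5 pairs of members.

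**Figure D1:**
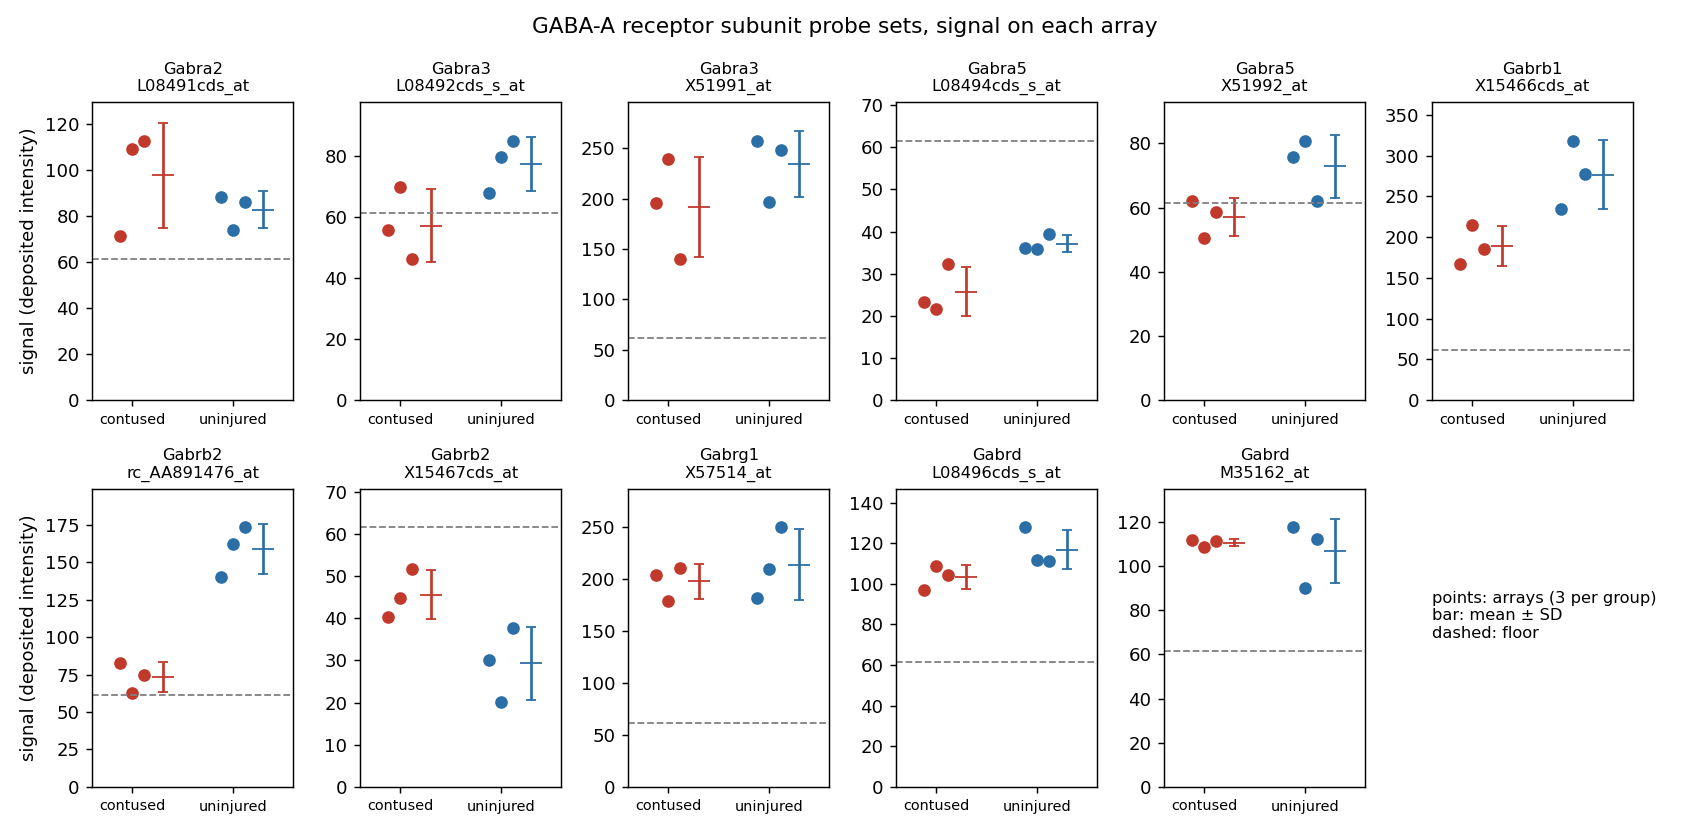
Signal (deposited intensity, linear axis from 0) of each of the 11 member probe sets on the 3 contused (red, left) and 3 uninjured (blue, right) arrays, with the mean and SD of each group and the floor of 61.6 as a dashed line. The groups are separate for Gabrb1, for Gabrb2 (rc_AA891476_at) and, narrowly and without a call, for Gabrd (L08496cds_s_at). Both probe sets under the floor, of Gabra5 and Gabrb2, lie apart in opposite directions.

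The promoters of these 2 beta genes are shown because they are the members called lower, and because their sequence proved alike. RefSeq windows on the GRCr8 assembly, 250 bases before to 50 bases after the annotated start, were found for 6 of the 7 members (Gabra2 had no entry). The Gabrb2 and Gabrb1 windows share 3 runs of at least 10 identical bases, in the same order and on the same strand. They are in capitals in the stretches below, which run 5′ to 3′ along the gene's strand, chr10:27439677-27439750 on the plus strand for Gabrb2 and chr14:36902866-36902943 on the minus strand for Gabrb1.
Gabrb2: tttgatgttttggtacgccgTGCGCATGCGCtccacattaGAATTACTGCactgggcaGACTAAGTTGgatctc
Gabrb1: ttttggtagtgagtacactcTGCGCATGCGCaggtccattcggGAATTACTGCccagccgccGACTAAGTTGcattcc

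The first run, TGCGCATGCGC, holds the palindrome GCGCATGCGC, which resembles the motif known for the transcription factor NRF1. On either strand, the run was found in 0.598% of 33469 promoter windows of the same length and the palindrome in 0.852%. The second run, GAATTACTGC, was in 0.0388% of windows and the third, GACTAAGTTG, in 0.0149%. Gabrb1 and Gabrb2 were the only members with any of them, and only 2 windows of 33469 held all 3. The runs were found by comparing these 2 windows, and no other pair of members was compared in this way. Their rarity is thus a description of the pair and not a test, and the arrays measured no binding at these sequences.

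**Figure D2:**
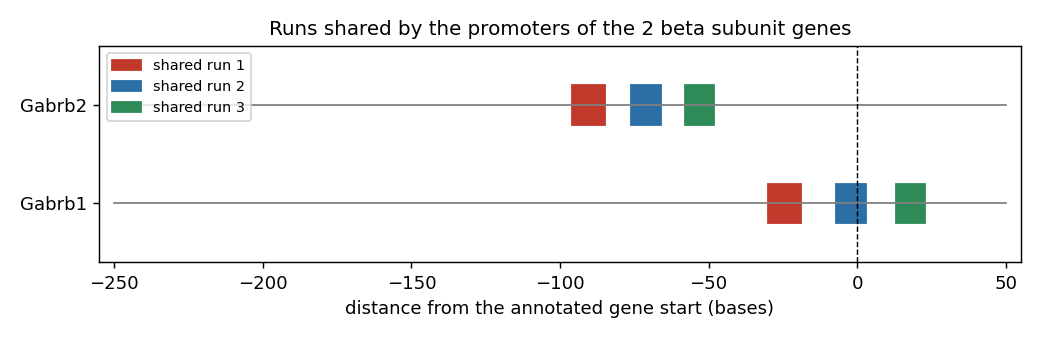
Position of the 3 shared runs (coloured boxes) in the promoter windows of Gabrb2 (top) and Gabrb1 (bottom), as distance in bases from the annotated gene start (dashed line). The runs keep their order but begin at base -96 in Gabrb2 and at base -30 in Gabrb1.

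No alpha subunit gene passed the threshold. Gabra3, whose alpha3 subunit is found in receptors of the dorsal horn, had signals of 196, 239 and 140.5 in contused cord, against 257, 197 and 248 in uninjured cord for its brighter probe set (X51991_at). The groups overlapped, with contused array 2 above uninjured array 2. The log2 change was -0.31 (SE 0.2, limma adjusted p = 0.347), and its 95% interval, from -0.76 to 0.14, leaves room for a fall of up to 1.7-fold. It was -0.10 without contused array 3 and -0.49 without contused array 2. The second Gabra3 probe set (L08492cds_s_at) gave 55.8, 69.8 and 46.2 in contused cord, against 67.8, 79.96 and 85.1 in uninjured cord. Only 1 of the 3 contused arrays was above the floor there. Its log2 change was -0.27 (limma adjusted p = 0.173), in the same direction, and -0.45 with a 10th-percentile floor or none (adjusted p = 0.13 and 0.142).

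Gabra5 encodes the alpha5 subunit of extrasynaptic receptors. Its tested probe set (X51992_at) gave 62.02, 50.6 and 58.7 in contused cord, against 75.8, 80.8 and 61.9 in uninjured cord. Contused array 1 and uninjured array 3 were nearly level, and 1 contused array was above the floor. The log2 change was -0.23 (SE 0.12, limma adjusted p = 0.237), computed with 2 contused arrays at the floor. It was -0.35 with a 10th-percentile floor or none (adjusted p = 0.191 and 0.218), and -0.15 without uninjured array 2. The second probe set (L08494cds_s_at) was below the floor on all arrays, at 23.2, 21.6 and 32.3 in contused cord and 36, 35.9 and 39.5 in uninjured cord. There every contused array was below every uninjured array, at levels too low to test. Among tested probe sets, such an order held for 3 of 9 members (Gabrb1, Gabrb2 and 1 for Gabrd), against 18.2% of all.

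Gabra2, whose alpha2 subunit is found in dorsal horn neurons and motor neurons, was the only member gene with a higher mean after contusion on its representative probe set. Signals were 71.5, 109 and 113 in contused cord, against 88.5, 73.8 and 86.1 in uninjured cord. Contused array 1 was the lowest of all 6 arrays, so the groups overlapped. The log2 change was 0.22 (SE 0.18, 95% interval -0.18 to 0.62, limma adjusted p = 0.475). It ran from 0.098 without contused array 3 to 0.43 without contused array 1, and was not called in either case.

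Among alpha genes, the log2 change of Gabra2 exceeded that of Gabra3 by 0.53 (95% interval -0.42 to 1.47; exact permutation p = 0.2, adjusted p = 0.5), and by 0.20 without contused array 3. It exceeded that of Gabra5 by 0.45 (95% interval -0.33 to 1.22; exact permutation p = 0.3, adjusted p = 0.5), and by 0.29 without uninjured array 2. Gabra3 and Gabra5 had a difference of -0.08 (95% interval -0.93 to 0.77; exact permutation p = 0.7), which turned to 0.13 without contused array 3 and to 0.036 with the lower floor or none. All 3 intervals include 0. With 3 against 3 arrays the exact test cannot give a p under 0.1, so it cannot decide whether the alpha genes differ.

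Gabrg1 encodes the gamma1 subunit, whose receptors respond less to classical benzodiazepines than those with gamma2. Its signals were 203, 178 and 210.2 in contused cord, against 182, 209.5 and 249 in uninjured cord. The groups overlapped, and the means were 197 ± 16.8 in contused cord and 213 ± 33.9 in uninjured cord (SD, n = 3 each). The log2 change was -0.10 (SE 0.16, limma adjusted p = 0.716). Its 95% interval of -0.46 to 0.25 allows a fall of at most 1.38-fold and a rise of at most 1.19-fold. The estimate was 0.013 without uninjured array 3 and -0.21 without uninjured array 1.

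Gabrd encodes the delta subunit of extrasynaptic, neurosteroid-sensitive receptors, and both of its probe sets were tested. The first (L08496cds_s_at) gave 97.02, 109 and 104 in contused cord, against 128, 112 and 111 in uninjured cord, a small but complete separation. Its log2 change was -0.18 (SE 0.13, 95% interval -0.47 to 0.12, limma adjusted p = 0.416), and -0.11 without uninjured array 1. The second (M35162_at) gave 112, 109 and 111 in contused cord, against 117, 90.2 and 112 in uninjured cord, and its groups overlapped. Its log2 change was 0.06 (SE 0.14, 95% interval -0.25 to 0.38, limma adjusted p = 0.818), and -0.054 without uninjured array 2. The 2 probe sets thus differed in sign and neither was called. The log2 changes of Gabrg1 and Gabrd had a difference of 0.07 (95% interval -0.54 to 0.68, exact permutation p = 0.7), and of -0.10 without uninjured array 1.

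**Figure D3:**
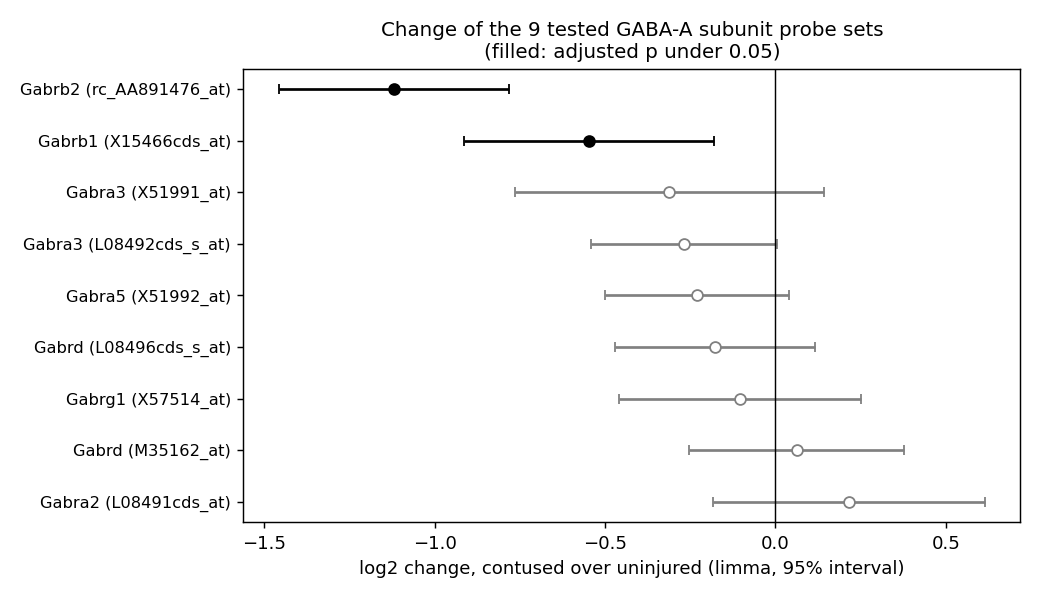
Log2 change, contused over uninjured, of the 9 tested member probe sets from limma, with 95% intervals and filled points for an adjusted p under 0.05. The intervals of both beta genes lie below 0, at -1.12 for Gabrb2 and -0.55 for Gabrb1, and the intervals of the 7 others cross 0.

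Most GABA-A subunit genes sit in clusters on the rat chromosomes, given here by their order in the GRCr8 assembly. Gabrb1, Gabra4, Gabra2 and Gabrg1 follow each other on chromosome 14. The log2 changes were -0.55 for Gabrb1, 0.22 for Gabra2 and -0.10 for Gabrg1, with Gabra4 below the filter. Differences between these neighbours were not tested. Gabrb2 lies beside Gabra6 on chromosome 10, where Gabra6 was at the floor on all arrays. Gabra5 and its neighbour Gabrg3 on chromosome 1 had log2 changes of -0.23 and 0.11, and Gabra3 and Gabre on chromosome X had -0.31 and -0.21. Outside Gabrb1 and Gabrb2, no tested gene of these clusters passed the threshold.

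**Figure D4:**
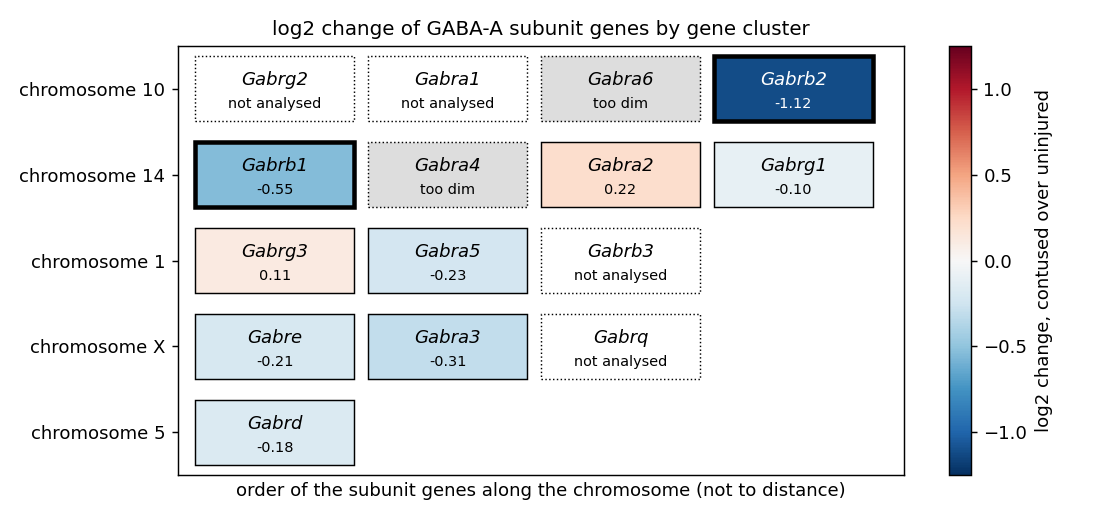
GABA-A subunit genes in their order along each chromosome (not to distance), coloured by the log2 change of the brightest tested probe set, contused over uninjured, with thick frames for an adjusted p under 0.05. Grey genes were too dim to test and white genes were not analysed here. Gabrb2 at -1.12 and Gabrb1 at -0.55 have the thick frames, and the other tested genes lie between -0.31 and 0.22.

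Other GABA-A and GABA-C subunit genes did not pass either. Of 12 listed, 8 were on the array and 4 were tested, of which 0 were lower and 0 higher in limma. The lowest unadjusted p was 0.238, for Gabre, and the median log2 change was 0.11. The brightest were Gabrg3, the gamma3 subunit, with a log2 change of 0.11 (limma adjusted p = 0.718), and Gabrr1, the rho1 subunit of GABA-C receptors, with 0.11 (adjusted p = 0.735, and a change of -0.037 without uninjured array 1). The rest of these 8 genes, Gabra4, Gabra6, Gabrp and Gabrr2, were too dim to test.

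Several partners of the receptor fell. Over 7 lists of GABA and glycine genes, 8 of 37 tested genes were lower and 1 was higher (4 without contused array 3), with a median of -0.13. Over all 3955 genes, each taken by its brightest probe set, 9.91% were lower and 7% higher, and the median was -0.02. Of 10 anchoring and trafficking genes, 2 were lower: Plcl1 and Nsf, with 0 higher and a median of -0.21. Plcl1 encodes PRIP-1, which binds beta subunits and GABARAP and takes part in receptor traffic. Its signals were 312, 305 and 464 in contused cord, against 838, 803 and 821 in uninjured cord, a 2.32-fold fall without overlap (limma adjusted p = 0.000839). Nsf, a vesicle fusion ATPase that also binds beta subunits, fell 2.04-fold (limma adjusted p = 0.00582), a call lost when dim probe sets were kept in (adjusted p = 0.0669). Gphn, whose product gephyrin anchors the receptors at synapses, had a log2 change of -0.25 (adjusted p = 0.367) and was chosen after its value was seen. Other uncalled genes of this list lay apart between groups in both directions. Gabarap and Dmd, the latter under the floor on all uninjured arrays, each had a log2 change of 0.27 (limma adjusted p = 0.114 and 0.113). Ubqln1 and Nlgn3 had -0.33 and -0.26 (limma adjusted p = 0.131 and 0.258), and Zdhhc3 had 0.10 (adjusted p = 0.451). These genes too were named after their values were seen. Over all tested probe sets, every contused array lay below every uninjured array for 18.2%, and the share for the other direction is not given here.

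Of 6 tested genes that make, take up, pack or break down GABA, 3 were lower and 0 higher, with a median log2 change of -0.46. Gad1, which makes GABA, gave 160.1, 148 and 187 in contused cord, against 381, 457 and 458 in uninjured cord. It fell 2.62-fold (limma adjusted p = 0.000213), and the groups did not overlap. Slc32a1, the vesicular transporter of GABA and glycine, fell 3.15-fold on its brightest probe set (limma adjusted p = 0.000831), while a second probe set, at 0.26 on the log2 scale, was not called. Abat, which breaks GABA down, fell 1.46-fold (limma adjusted p = 0.0231), a call lost without contused array 1 or 2 or uninjured array 2 or 3 (adjusted p = 0.0563, 0.0885, 0.0717 and 0.0663) and with dim probe sets kept in (0.0588).

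Chloride balance sets the direction of current through the receptor. Of 6 tested chloride genes 2 were lower and 0 higher, with a median of -0.36, and 1 was lower without uninjured array 2 or 3, and 1 higher without contused array 3. Slc12a5, the neuronal chloride extruder KCC2, had 225, 301 and 393 in contused cord, against 756, 842 and 989 in uninjured cord, which is 2.87-fold lower (limma adjusted p = 0.000573). Slc12a2, the chloride importer NKCC1, fell 1.39-fold on its brightest probe set (limma adjusted p = 0.0317), while its other probe sets, at 0.27 and 0.12 on the log2 scale, were not called. That call was lost without contused array 1 (0.0938) or uninjured array 2 (0.112) or 3 (0.111), and with dim probe sets kept in (0.076). The difference between the extruder and the importer was not tested.

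Of the 2 GABA-B receptor genes 1 was lower: Gabbr1, a G protein-coupled GABA receptor, fell 1.77-fold on its brightest probe set (limma adjusted p = 0.00656), a call lost with dim probe sets kept in (0.0555). A second Gabbr1 probe set was also lower (log2 change -0.48, adjusted p = 0.0329), and 2 more, at -0.45 and -0.22, overlapped between groups and were not called (adjusted p = 0.285 and 0.495). Probe sets of the other gene, Gabbr2, differed as well. Glycine receptor and transport genes had 0 of 4 past the threshold in limma, with a median of -0.08, and 1 was lower without contused array 1. The brightest were the glycine transporters Slc6a9, with a log2 change of -0.39 (adjusted p = 0.0611, and 0.0433 without contused array 1), and Slc6a5, with -0.03 (adjusted p = 0.919). Of 5 genes of endogenous modulators 1 was higher and 0 lower, with a median of 0.29, and 3 were higher without contused array 3. This gene was Tspo, a mitochondrial outer membrane protein linked to neurosteroid synthesis and abundant in activated microglia. Its signals were 324, 399 and 322 in contused cord, against 138, 168 and 117 in uninjured cord, a 2.48-fold rise (limma adjusted p = 0.00057).

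The arrays measured whole tissue, in which fewer cells of a type and less RNA per cell cannot be told apart. Of 20 tested neuron markers, 15 were lower and 0 higher, with a median log2 change of -0.93. Their summed signal was 12302 to 13167 in contused cord, against 22046 to 26459 in uninjured cord, and Syt1 and Camk2a were at the floor throughout. Interneuron and dorsal horn markers were lower in 10 of 13 cases (summed signal 2611 to 2921 in contused cord, against 5001 to 5571 in uninjured cord). Microglia and macrophage markers were higher in 13 of 14 cases, with sums of 10044 to 10727 in contused cord and 3916 to 4380 in uninjured cord. The part of these shifts in the subunit changes was not tested.

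Of other cell types, oligodendrocyte and myelin markers were lower in 5 of 10 cases. Fibroblast and meninges markers were higher in 4 of 8, with Postn at the floor throughout. With 1 array left out, only 1 to 3 fibroblast and meninges markers were higher (2 without contused array 1, 1 without contused array 2). Astrocyte markers were higher in 3 of 14 cases. With 1 array left out, only 1 to 2 were higher (1 without contused array 2 or 3 or uninjured array 3). No Schwann cell marker of 6 was called in limma, and 1 was higher without contused array 1 or 3 or uninjured array 2. None of these 4 lists moved the opposite way in any called gene.

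Set against the mean of the 20 neuron markers on the same array, whose log2 change was -0.92, 5 of the 7 members stood relatively higher after contusion with no overlap between groups. The same held for 88.4% of the 3935 tested genes other than the markers, whose median difference was 0.91, so the count does not set the members apart. This comparison was added after the values were seen, and exact permutation p-values cannot go below 0.1 (0.14 adjusted over 7 members). Gabrg1 stood higher by 0.82 (SE 0.07, 95% interval 0.63 to 1.01), and by 0.79 to 0.88 with each array left out. Gabra2 stood higher by 1.14 (95% interval 0.43 to 1.84), Gabrd by 0.75 (0.27 to 1.22) and Gabra5 by 0.69 (0.19 to 1.20). For Gabra5, with only 1 contused array above the floor, the value was 0.58 with a 10th-percentile floor or none. Gabrb1 stood higher by 0.38 (95% interval -0.09 to 0.84), and by 0.23 without contused array 2. Gabra3, at 0.61 (0.39 without contused array 2), overlapped between groups, and so did Gabrb2, at -0.20 (95% interval -0.46 to 0.07). With the floor at the pooled median signal, which covers all contused Gabrb2 values, Gabrb2 stood at 0.54 and Gabrb1 at 0.34.

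**Figure D5:**
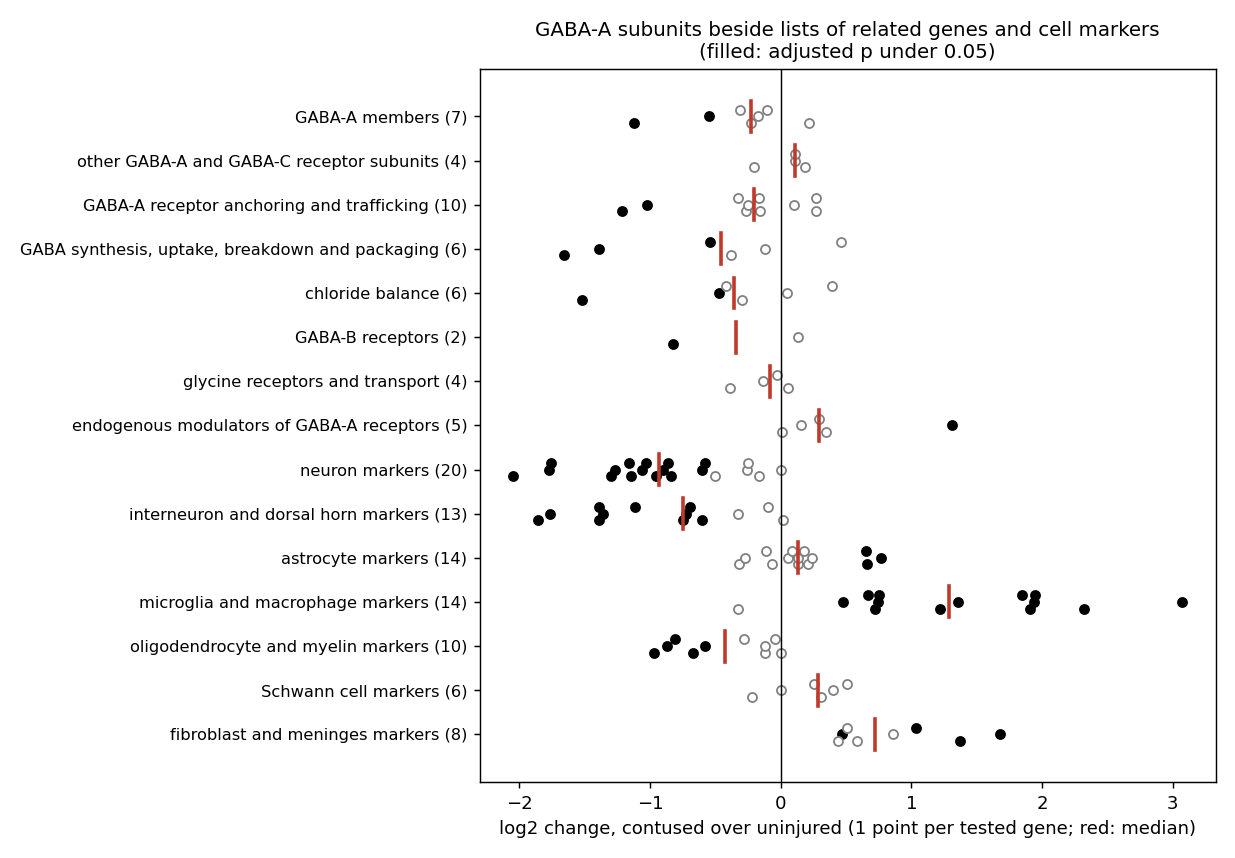
Log2 change, contused over uninjured, of each tested gene by its brightest tested probe set, for the 7 GABA-A members (top) and the 14 lists, with the number of tested genes in parentheses, filled points for an adjusted p under 0.05 and red bars at the medians. The median is -0.23 for the members, -0.93 for neuron markers and 1.29 for microglia and macrophage markers.

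Over the 6 arrays, the genes most like Gabrb2 by Pearson's r of log2 signal were Slc25a3 (r = 0.999), Bin1 (0.998) and Tagln3 (0.998), with log2 changes of -0.43, -0.58 and -0.48. Those most like Gabrb1 were Fkbp2 (r = 0.993), Ppa2 (0.992) and Tpd52l2 (0.989), with log2 changes of -1.09, -0.51 and -0.58. These are the highest of all correlations computed over arrays that share the split between groups, and they are given as a description.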

How the data were processed

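The deposited table gives 1 intensity for each probe set on each array. The values themselves show a linear scale, and 21 to 32 of them on each array are negative. The authors' probe summary, background correction and scaling are not stated in the labels or in the table. The trimmed means of the arrays (2% cut at each end) differed by 8.62%, under the limit of 10% for rescaling, so the deposited intensity values were used as they are. The table held 0 columns of other samples. Precision is limited by the number of arrays, which leaves 4 residual degrees of freedom.

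Groups came from the sample titles. Of 8799 probe sets, 59 controls were left out, and 7006 of the others carried 1 gene, 308 several and 1426 none. Gene identifiers matched the GRCr8 table for 6985 probe sets, and the annotated symbol was kept for the other 21. Values under the pooled 25th percentile were floored, taken to log2 and fitted with limma 3.58.1 in R 4.3.3 (lmFit, eBayes with trend, two-sided, no covariate). The fit was also run on simulated data, drawn as independent normal noise without a floor. That run does not cover floored values. Where a gene had several probe sets, the brightest tested one stood for it. Differences between members were taken per array, with intervals from the spread within groups and exact two-sided permutation tests over the 5 pairs within subunit classes. The members and the 14 lists (191 genes) were chosen with earlier results of these data known. Named genes are all members, up to 3 called genes per list and direction with the smallest p (the 2 brightest where none passed, and marker genes by count only), and the 3 genes most correlated with each called member. Promoters came from RefSeq. Alternatives were other floors, filters, scalings and variance models, the replicate number as a block, and leaving out each array. Same-numbered arrays had deviations from their group means that correlated at 0.04, 0.22 and -0.24, so the numbers were not taken as pairs. Plots used Python 3.11.15, pandas 2.3.3 and matplotlib 3.10.9.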

Additional observations from a re-analysis of the deposited data

How the results depend on the processing

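Gabrb2 stayed past the threshold and lower under all 14 alternatives run. Gabrb1 stayed lower under all 14, and its call was lost in 6. It was lost without the filter on dim probe sets, which adds 2035 probe sets to both the fit and the adjustment (log2 change -0.55, adjusted p = 0.121). It was also lost in 5 of 6 cases with 1 array left out. Over all 6 such cases the log2 change of Gabrb1 ran from -0.66 to -0.44. Its adjusted p ran from 0.0393, in the case that kept the call, to 0.141. Member probe sets lower then numbered 1 without that filter and 1 to 2 with an array left out. Gabra2, Gabra5, Gabrd and the dimmer Gabra3 probe set could not be tested when the floor was the 50th percentile.

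Without the filter, 266 probe sets were higher and 396 lower, against 522 and 643 in the reported setting. With an array left out these were 276 to 484 and 383 to 776, lowest without uninjured array 3 (276 and 383), and 295 and 428 without contused array 2. Over the 7 GABA and glycine lists, 4 genes were lower and 3 higher without the filter, against 8 and 1, and 1 to 4 were higher with an array left out. With a 10th-percentile floor, no percentile floor or quantile normalization, 2 were higher. Of single lists, anchoring and trafficking had 1 gene higher under those 3 settings and without the filter, and GABA-B receptors 2 lower with the mean of each gene's probe sets and 0 without the filter. Without the filter, anchoring and chloride had 1 lower each, modulators 2 higher, astrocytes 1 higher and fibroblasts 0 higher. Schwann cell markers had 2 higher with quantile normalization and 1 with the 50th-percentile floor, no percentile floor, rescaled arrays, the replicate block or the mean of probe sets, and glycine genes 1 lower with the mean of probe sets. The cause was not tested.

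With 1 array left out, the log2 change turned in sign for Gabrg1 (-0.21 to 0.013), the second Gabrd probe set (-0.054 to 0.14), Gabrr1 (-0.037 to 0.28) and Slc6a5 (-0.12 to 0.046, and 0.018 with rescaled arrays), none of them called. So did the differences Gabra3 minus Gabra5 (-0.28 to 0.13, and 0.036 with the lower floor or none) and Gabrg1 minus Gabrd (-0.10 to 0.22). With the 50th-percentile floor, which covers all contused Gabrb2 values, Gabrb2 minus Gabrb1 became 0.21 and Gabrb2 minus neuron markers 0.54. With the replicate block, 535 probe sets were higher and 665 lower, Gabrb1 had an adjusted p of 0.0303 and Gabrb2 of 0.000961, and the block changed no call among the members.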

Other observations

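Among genes of the GABA and glycine lists, 3 were singled out after their values were seen, because their probe sets differed. For Gabbr2, a subunit of the GABA-B receptor, the brightest probe set (AF109405_s_at) had signals of 213, 233 and 242 in contused cord, against 225, 211 and 192 in uninjured cord, and was not called (log2 change 0.13, limma adjusted p = 0.581). A second one (AF058795_at) had 69.4, 81.4 and 106 in contused cord, against 246, 314 and 281 in uninjured cord, and fell by 1.73 on the log2 scale (limma adjusted p = 0.000171). For Slc32a1, a second probe set had a log2 change of 0.26 (adjusted p = 0.338), and for Slc12a2 the other probe sets had 0.27 and 0.12 (adjusted p = 0.195 and 0.7), against falls on the brightest.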
